A study of Mus musculus with 4 samples.

Results

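The 10 genes described here act at the last step of epidermal differentiation: the transglutaminases Tgm1, Tgm3 and Tgm5, the proteases Casp14, Asprv1, Klk5, Klk7 and St14, and the protease inhibitors Spink5 and Cst6. All probe sets annotated to 1 of these 10 symbols alone were taken, dim ones included, which gave 12 of the 45037 non-control probe sets. Tgm3 and Casp14 had 2 probe sets each and the other genes 1. The series holds 4 Affymetrix arrays of RNA from FACS-sorted basal cells of the epidermis of mouse embryos (day 16). There were 2 wild-type (WT) arrays and 2 arrays of a conditional Ezh2 knockout (Ezh2cKO), numbered 1 and 2 in each genotype, from mice of mixed C57 and CD1 background. No treatment is named, and the promoter that drives the deletion is not given in the sources used here. The comparison asks which genes depend on silencing by Ezh2, the catalytic subunit of Polycomb repressive complex 2.

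Keratinocytes leave the basal layer, pass through the spinous and granular layers and end as dead, cornified cells. In the granular layer transglutaminases cross-link structural proteins into the cornified envelope, and proteases cut profilaggrin into the units that bundle keratin. Kallikreins cut the junctions that hold cornified cells together, and inhibitors such as the product of Spink5 keep them in check until the surface is reached. Basal cells normally keep such genes low.

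Each value is a MAS5 signal (linear) of a probe set. Median signals over all non-control probe sets were 87.4 to 91.6 on the arrays numbered 1 and 137 to 148 on those numbered 2, and genotype differences are therefore shown for each number on its own too. Ezh2 itself was lower where the labels say it was deleted, at 661 and 1308 in Ezh2cKO against 3336 and 3603 in WT. The labels do not say that the arrays came from separate animals, so the spread behind each p-value is that of these samples. Xist, an RNA of the inactive X chromosome, had 86.9 and 11333 in Ezh2cKO, so these 2 arrays were not repeats of 1 RNA sample. Between the WT arrays (Xist 8669 and 10527) the spread may be technical. The number of arrays limits the precision. Basal markers were bright: Krt14, the basal keratin, lay between 14501 and 16592. The sorted cells were not pure, since Dcn, a matrix protein of dermal fibroblasts, lay between 13276 and 17210, and Krt10, the keratin of spinous cells, between 16550 and 20275. In such bulk RNA, a different share of granular cells and a different level per cell cannot be told apart. Levels of different probe sets are not set against each other, because probe sets differ in how brightly they bind.

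Both kallikreins among the genes had higher signal in the Ezh2cKO arrays, by log2 1.11 and 0.89, and the next mean difference among the other 8 genes was 0.47 (Cst6). Klk5 and Klk7 encode secreted serine proteases of the outermost epidermis. Klk5 cleaves like trypsin and can activate other kallikreins, and Klk7 cleaves like chymotrypsin and cuts corneodesmosin. Klk7 had signals of 85.9 and 109 in WT and 249.5 and 207 in Ezh2cKO (means 97.6 ± 16.6 and 228 ± 30.3, SD, n = 2 each). Both knockout arrays lay above both WT arrays, and the ratio of signals was 2.91 within number 1 and 1.89 within number 2. Klk5 had 86.0 and 75.2 in WT and 164 and 161 in Ezh2cKO (means 80.6 ± 7.69 and 162 ± 1.95). Its groups did not overlap either, with ratios of 1.90 within number 1 and 2.14 within number 2.

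Differences were taken between values of log2(signal + 16), an offset that shrinks those of dim genes. The difference was 1.11 for Klk7 (SE 0.35, 95% confidence interval 0.22 to 1.99) and 0.89 for Klk5 (SE 0.39, interval -0.09 to 1.86). Of the 12703 genes whose brightest probe set passed the intensity filter, 0.276% had a larger difference upwards than Klk7 and 0.606% a larger one than Klk5. In limma with Benjamini-Hochberg adjustment over 27022 probe sets, the adjusted p was 0.999979 for both. Without adjustment it was 0.0231 for Klk7 and 0.0676 for Klk5. The WT signals of both genes lay near the filter's level of 73.2, so the size of each difference depends on the offset: it was 1.22 for Klk7 and 1.00 for Klk5 with a pseudocount of 1, and 0.85 and 0.65 with a pseudocount of 64. With 1 array left out in turn, the difference ranged from 0.96 to 1.26 for Klk7 and from 0.81 to 0.97 for Klk5.

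**Figure D1:**
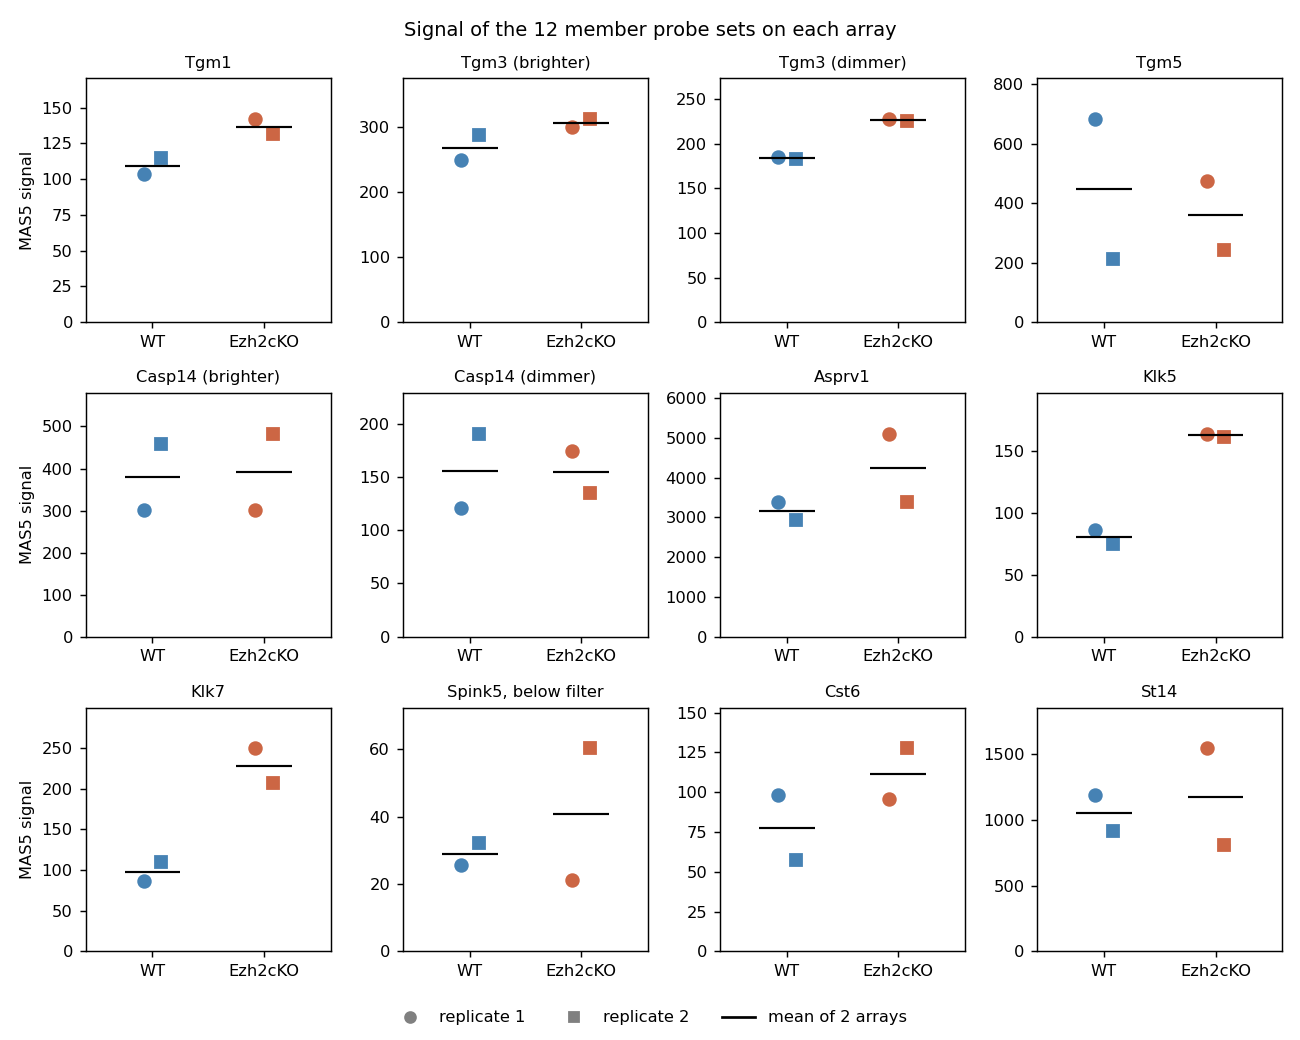
MAS5 signal (linear axis from 0) of the 12 probe sets on each array, with 1 panel per probe set. Circles are replicate 1, squares replicate 2 and bars the mean of 2 arrays; relative to their WT signals Klk5 and Klk7 show the widest gap between genotypes (axes differ by panel), while the Tgm5 arrays separate by replicate number, at 682 and 475 against 212 and 244.

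Klk5 and Klk7 lie in 1 chromosomal cluster of kallikreins, with only Klk6 between them. Of the 12 cluster genes from Klk14 to Klk15, 10 had a probe set, and 6 of these were higher in Ezh2cKO within both numbers. That happened for 25.5% of all 18193 genes with a probe set of their own. Only Klk5 and Klk7 had both Ezh2cKO arrays above both WT arrays, and 0 of the 10 had them below, where 9.9% and 9.14% of all genes did. Klk6, which lay below the filter, had 21.1 and 58.8 in WT and 35.3 and 86.5 in Ezh2cKO, higher by log2 0.47 and 0.45 within the numbers but overlapping between genotypes. Klk8, on the other side of Klk7, differed by 0.11 within each number. Klk13 had 449.9 and 186 in WT and 485 and 405 in Ezh2cKO, so that its difference came almost wholly from number 2 (log2 0.11 and 1.06). Klk10 (0.21), Klk9 (0.31), Klk11 (-0.01) and Klk4 (-0.14) overlapped as well.

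**Figure D2:**
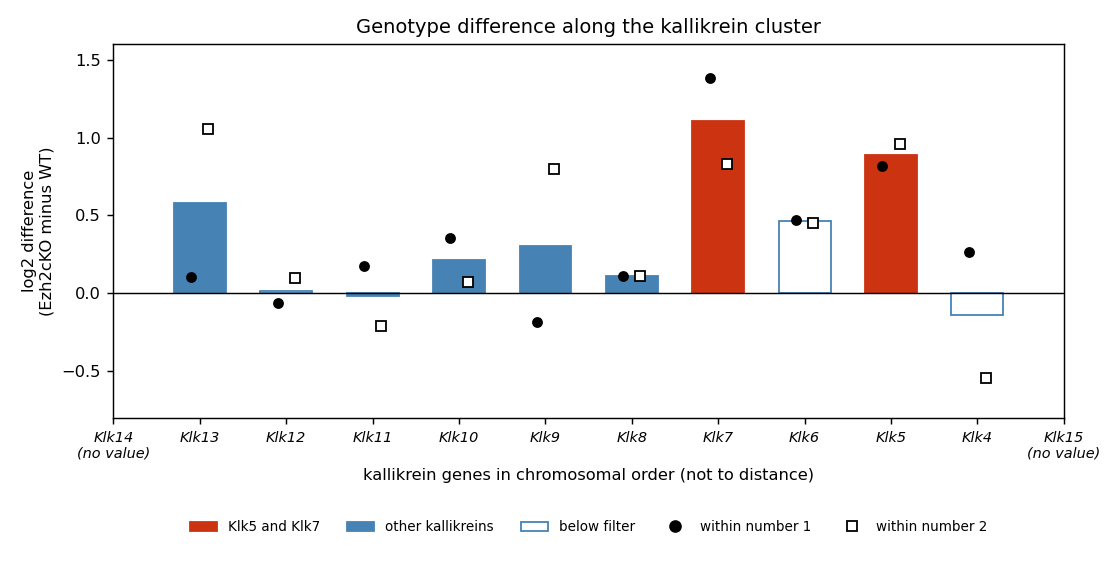
Log2 difference (Ezh2cKO minus WT, vertical axis) of the kallikrein genes in chromosomal order, not drawn to distance. Bars are the mean over both numbers, open where the gene lies below the filter, and symbols are the 2 numbers; in Klk7 and Klk5 both symbols lie above 0.8, while Klk13 and Klk9 are that high or nearly so within number 2 only.

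The bases before the starts of these 2 genes are shown because they were the only members separated between genotypes under every scaling tried. Tgm3 is added as the only member window with a TATAAA match among those used. Sequences are from RefSeq (GRCm38.p6), on the gene's strand, and end at the base before the start, with CpG dinucleotides, the substrate of DNA methylation and a feature of many Polycomb-bound promoters, in capitals. The windows are chr7:43842019-43842268 (plus strand) for Klk5, chr7:43811044-43811293 (plus strand) for Klk7 and chr2:130012090-130012339 (plus strand) for Tgm3.
Klk5: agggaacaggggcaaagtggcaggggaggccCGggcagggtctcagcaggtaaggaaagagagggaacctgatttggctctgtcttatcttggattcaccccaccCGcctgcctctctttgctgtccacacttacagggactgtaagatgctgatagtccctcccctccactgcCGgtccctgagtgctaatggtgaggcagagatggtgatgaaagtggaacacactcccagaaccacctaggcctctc
Klk7: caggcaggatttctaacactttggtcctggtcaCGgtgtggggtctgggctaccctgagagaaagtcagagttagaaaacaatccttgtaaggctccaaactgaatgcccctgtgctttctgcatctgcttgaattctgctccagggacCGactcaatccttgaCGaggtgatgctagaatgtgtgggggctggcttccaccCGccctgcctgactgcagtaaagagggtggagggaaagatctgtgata
Tgm3: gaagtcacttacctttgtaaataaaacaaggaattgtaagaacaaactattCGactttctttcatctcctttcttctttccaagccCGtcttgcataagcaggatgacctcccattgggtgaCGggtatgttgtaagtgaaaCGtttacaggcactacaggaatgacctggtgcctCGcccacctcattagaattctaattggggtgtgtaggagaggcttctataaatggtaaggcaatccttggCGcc

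The Klk5 window holds 3 CpG and the Klk7 window 4. Over the 8 windows used, of 7 members, the number ran from 3 in Klk5 and Tgm5 to 8 in Casp14 and in 1 of the Tgm1 windows. No window of Spink5, Cst6 or St14 was used. All 32851 windows of that length had a median of 6, with quartiles of 2 and 16, so the 8 windows used lie in the middle of that range. CACCC, a core of KLF binding sites, was searched on both strands and occurred in 7 of the 8 windows, all but that of Tgm5, where 52.0% of all windows hold it. TATAAA, also on both strands, occurred once, 28 bases before the start of Tgm3, where 12.4% of all windows hold it. TGANTCA, the AP-1 motif, and AACNGGTT, a Grhl motif, occurred in 0 of the 8, against 6.75% and 1.79% of all windows. No array value bears on binding at these windows.

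The mean differences of the transglutaminases were smaller in size than those of Klk5 and Klk7, with intervals that reach far to both sides of 0. Of the genes passing the filter, 7.75% had a larger difference upwards than Tgm1, 14.5% than Tgm3 and 83.8% than Tgm5, by brightest probe sets. Tgm1 encodes the membrane-anchored enzyme that builds the envelope, and its loss in humans causes lamellar ichthyosis. Tgm1 had signals of 104 and 115 in WT and 142 and 131 in Ezh2cKO (means 109 ± 7.98 and 137 ± 7.600, n = 2 each). The groups did not overlap, and the log2 difference was 0.28 (SE 0.38, interval -0.66 to 1.23), or 0.40 and 0.17 within numbers 1 and 2. Tgm3, a soluble enzyme of epidermis and hair, had 249.1 and 289 in WT and 301 and 313 in Ezh2cKO by its brighter probe set (log2 0.18, SE 0.26, interval -0.46 to 0.82). By its dimmer one it had 185 and 183 against 228 and 225 (log2 0.28, SE 0.28, interval -0.43 to 0.99). Both Tgm3 probe sets thus lay higher on both knockout arrays, with a close match between replicates in the dimmer one.

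These separations were small and depended on the scaling. Quantile normalization gave Tgm1 values of 129.9 and 96.9 in WT against 177 and 102 in Ezh2cKO, which overlap. The brighter Tgm3 probe set overlapped there too, at 276 and 264 in WT against 332 and 275 in Ezh2cKO. Scaling to a common median also made Tgm1 and the brighter Tgm3 probe set overlap. Both genes stayed higher within each number under both scalings, by at least 0.003 (Tgm3, number 2, common median). Tgm5, whose enzyme acts in the upper epidermis and whose loss in humans causes peeling of the skin, had 682 and 212 in WT and 475 and 244 in Ezh2cKO. Its arrays separated by number rather than genotype: the log2 difference between genotypes was -0.51 within number 1 and 0.19 within number 2 (mean -0.16, SE 0.61), while the arrays numbered 2 lay below those numbered 1 by a log2 difference of -1.27. Only 1.83% of the genes passing the filter had a larger difference between the numbers, in either direction. The mean for Tgm5 ranged from -0.97 without WT replicate 2 to 0.64 without WT replicate 1.

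The 2 proteases that process filaggrin gave different pictures. Asprv1, a retroviral-like aspartic protease that cuts the linkers of profilaggrin, had signals of 3395 and 2933 in WT and 5103 and 3379 in Ezh2cKO (means 3164 ± 327 and 4241 ± 1219). Its knockout value was higher within both numbers, by log2 0.59 in number 1 and 0.20 in number 2, but Ezh2cKO replicate 2 lay just under WT replicate 1 (3379 against 3395). The log2 difference was 0.39 (SE 0.24, interval -0.20 to 0.99), with 0.69 without Ezh2cKO replicate 2 and 0.098 without Ezh2cKO replicate 1. Under quantile normalization the Asprv1 groups no longer overlapped. Casp14, a caspase of cornifying cells that helps break filaggrin down, had 301 and 459 in WT and 302 and 483 in Ezh2cKO by its brighter probe set. The arrays paired by number, with log2 differences of 0.004 and 0.07 (mean 0.04, SE 0.35, interval -0.84 to 0.91). The name of that probe set ends in _x_at, a design type that may bind related sequences. The dimmer Casp14 probe set had 121 and 191 in WT and 174 and 135 in Ezh2cKO, with differences of 0.48 and -0.45 within the numbers that cancelled in the mean (0.01, SE 0.39).

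St14 encodes matriptase, a membrane-anchored serine protease that can activate prostasin and pro-kallikreins. Its signals were 1186 and 912 in WT and 1545 and 808 in Ezh2cKO. It was higher in the knockout within number 1 (log2 0.38) and lower within number 2 (log2 -0.17), and the mean difference of 0.10 had an interval of -0.78 to 0.98. The sign turned with the array left out, from -0.36 without Ezh2cKO replicate 1 to 0.56 without Ezh2cKO replicate 2.

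Both inhibitors were lower in Ezh2cKO within number 1 and higher within number 2. Cst6 encodes cystatin M/E, which inhibits cathepsins and legumain. Cst6 had 98.0 and 57.1 in WT and 95.4 and 128 in Ezh2cKO, with a log2 difference of -0.03 within number 1 and 0.97 within number 2 (mean 0.47, SE 0.50, interval -0.78 to 1.72). Its mean thus rests on the pair numbered 2: it was 0.15 without WT replicate 2 and 0.79 without WT replicate 1. Spink5 encodes LEKTI, the inhibitor of Klk5 and Klk7 that is lost in Netherton syndrome. Spink5 had 25.5 and 32.3 in WT and 21.1 and 60.3 in Ezh2cKO, all below the filter's level of 73.2, so it was the only gene not tested there. Its differences were -0.16 and 0.66 within the numbers, at signals where MAS5 values are noisy and where no background level was used. No fold is given for it.

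**Figure D3:**
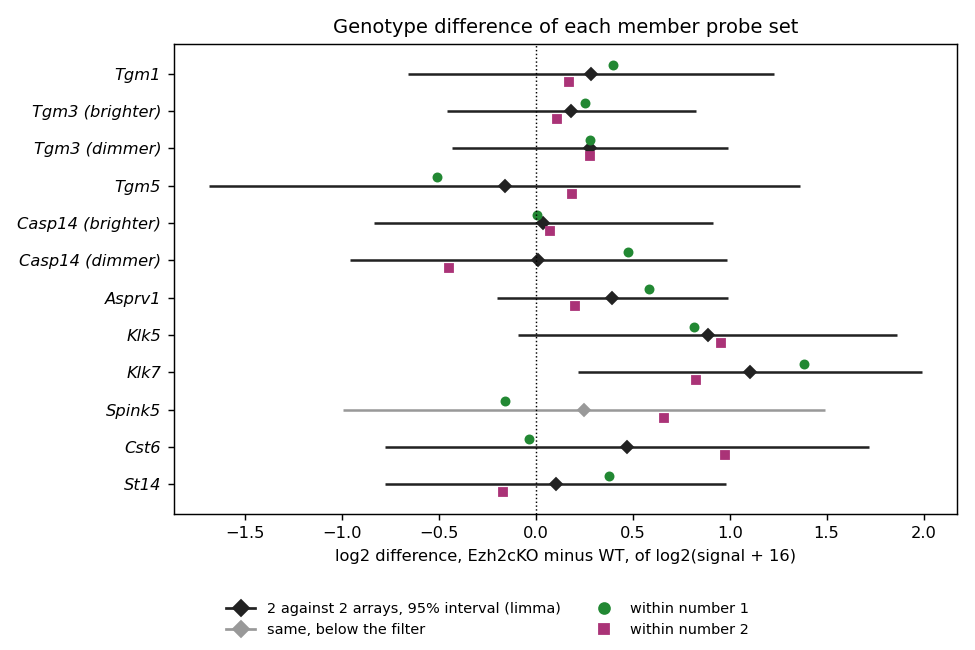
Log2 difference (horizontal axis, Ezh2cKO minus WT of log2(signal + 16)) of each probe set, with diamonds for 2 against 2 arrays, lines for limma's 95% confidence interval, circles for number 1 and squares for number 2. In this fit without a block the interval of Klk7 alone lies above 0, at 0.22 to 1.99. That of Tgm5 is the widest, at -1.68 to 1.36, and includes the difference between its numbers. Spink5, in grey, comes from a fit without the filter.

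Counted over the 10 genes by their brightest probe sets, 4 had both Ezh2cKO arrays above both WT arrays (Tgm1, Tgm3, Klk5 and Klk7) and 0 had both below. Of all 18193 genes, 9.9% lay above and 9.14% below in this way. The other 6 overlapped. Higher within both numbers were 6 of 10, Asprv1 and Casp14 beside those 4, where 25.5% of all genes were, and lower within both were 0, where 24.7% of all genes were. The median log2 difference was 0.27 over the 10 genes (0.32 within number 1 and 0.19 within number 2) and 0.0014 over all genes. In all 4 pairs of a knockout and a WT array, 0 were at least 2-fold higher and 0 at least 2-fold lower, where 0.577% and 0.385% of all genes were. In limma 0 of the 11 probe sets tested passed an adjusted p of 0.05, as did 0 of all 27022 (0.0%), and 1 of 11, that of Klk7, had an unadjusted p under 0.05, where 0.348% of all probe sets did upwards and 0.0592% downwards. An exact two-sided permutation test of 2 against 2 arrays cannot give a p below 0.33.

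Which genes were separated depended on the scaling. Klk5 and Klk7 were higher on both knockout arrays under the deposited scaling, quantile normalization and a common median. Quantile normalization added Asprv1 to this pair, for 3 of 10, where 1828 of 18193 genes were separated upwards, and a common median left the pair alone, for 2 of 10, where 6.88% of all genes were. With 1 array left out more genes of any kind pass the comparison. Leaving out WT arrays, 7 of 10 members were higher without replicate 1 and 5 of 10 without replicate 2, where 24.1% and 28.8% of all genes were. Leaving out Ezh2cKO arrays, 7 of 10 were higher without replicate 1 and 6 of 10 without replicate 2, where 36.0% and 31.6% of all genes were. Lower were St14 without Ezh2cKO replicate 1, Tgm5 without WT replicate 2 and Spink5 without Ezh2cKO replicate 2, where 30.5%, 23.8% and 35.7% of all genes were, and 0 members without WT replicate 1 (27.6% of all genes). Among the 7 higher without WT replicate 1 were Tgm5, Asprv1 and Cst6 besides the 4, and among the 7 without Ezh2cKO replicate 1 Casp14, Spink5 and Cst6.

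**Figure D4:**
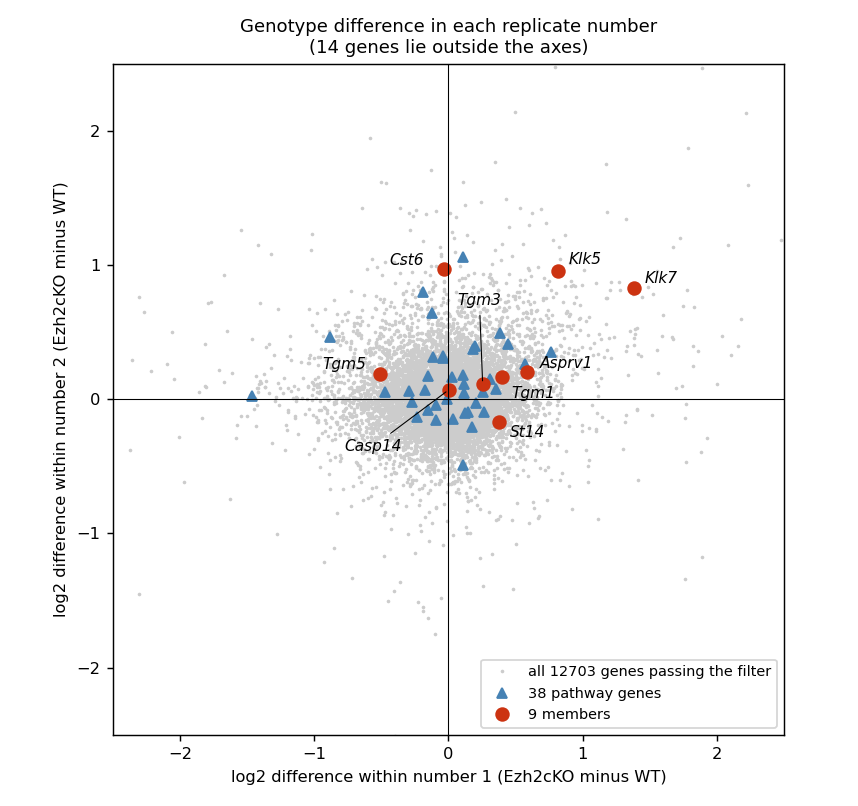
Log2 difference between genotypes within number 2 (vertical axis) against that within number 1 (horizontal axis), with grey dots for the 12703 genes that passed the filter, triangles for 38 related genes and circles for 9 of the 10 genes (Spink5 lay below the filter). Klk5 and Klk7 stand at the upper right, at 0.82 and 0.96 and at 1.38 and 0.83, Cst6 is high within number 2 only, and 14 genes lie outside the axes.

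Other enzymes and inhibitors of the same classes, chosen by class with earlier results of these data known, went in both directions. Of 62 such genes 55 had a probe set, and 6 of these had both Ezh2cKO arrays above both WT arrays and 6 both below, near the 9.9% and 9.14% of all genes. Among the 38 above the filter, 5 lay above and 2 below, where 8.52% and 8.39% of genes above it did. Within both numbers, 14 of the 38 were higher and 5 lower, where 3201 and 3250 of the 12703 genes above the filter were. Over the 55 these counts were 16 and 11, where 25.5% and 24.7% of all genes were. The median log2 difference of the 55 was 0.08, and none of the 38 that passed the filter had an adjusted or unadjusted limma p under 0.05. With 1 array left out in turn, 10 to 23 of the 55 were higher and 10 to 19 lower. The lowest count of higher genes came without WT replicate 2 and the highest without WT replicate 1. Over all genes these shares ran from 24.1% to 36.0% higher and from 23.8% to 35.7% lower. Under a common median 2 were higher, Padi3 and Spink12, and 5 lower.

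Among transglutaminases and arginine deiminases, Padi3, which converts arginine to citrulline in envelope and hair proteins, was the only gene above the filter with separated arrays (104 and 141 in WT, 148 and 193 in Ezh2cKO, log2 0.43, SE 0.38). Tgm2, the widely expressed tissue transglutaminase, had 646 and 769 in WT and 225 and 783 in Ezh2cKO by its brightest probe set. Ezh2cKO replicate 1 alone stood apart there, and under a common median both knockout arrays lay lower. The 5 Tgm2 probe sets above the filter ranged from log2 -0.72, that of the brightest, to -0.06. Of the other kallikreins, 0 of 9 were separated in either direction, with a median difference of 0.11. Within both numbers 4 of the 9 were higher and 0 lower, where 25.5% and 24.7% of all genes were. Among other proteases, Tmprss4, a membrane serine protease, had 159 and 144 in WT and 244 and 177 in Ezh2cKO (log2 0.42, SE 0.33). Ctsh, a lysosomal cathepsin, had 858 and 692 against 988 and 918 (log2 0.30, SE 0.21). Ctsl, another lysosomal cathepsin, was the only one of the 15 above the filter that was lower on both knockout arrays, at 5491 and 4995 against 4560 and 4927 (log2 -0.14, SE 0.15). Tmprss4 overlapped under a common median, as did Ctsh and Ctsl, and Tmprss4 and Ctsl overlapped under quantile normalization.

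Among other inhibitors, Serpinb2, a serpin of the plasminogen system, had 89.0 and 74.6 in WT and 162 and 99.6 in Ezh2cKO (log2 0.56, SE 0.46). Wfdc12, a small secreted protease inhibitor, had 99.1 and 97.0 against 127 and 109 (log2 0.23, SE 0.41). Serpinb8 was lower on both knockout arrays by its brighter probe set (681 and 645 against 612 and 608, log2 -0.12, SE 0.20), while its other probe set gave 0.04. Serpinb2 and Wfdc12 were separated under neither of the other scalings, and Serpinb8 under quantile normalization but not under a common median.

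Of 28 other genes with a probe set that lie within 2 protein-coding genes of a member, 2 had both knockout arrays above and 2 both below. Over all genes 9.9% and 9.14% did. The median difference of the 28 was 0.07.

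The profile over the 4 arrays that is the median of the 9 members above the filter was -0.19 and -0.30 in WT and 0.38 and 0.12 in Ezh2cKO (replicates 1 and 2), as log2 values centred on the mean of the arrays. By Euclidean distance over the 4 arrays, the nearest of 12694 other genes was Rnf208 (distance 0.045), followed by Msmo1 (0.069), Npc1l1 (0.081), Bpifc (0.10) and Bcl2 (0.10), where the median distance was 0.63. Rnf208, for instance, had 607 and 574 in WT and 936 and 792 in Ezh2cKO. With 4 arrays such likeness is only a description.

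Markers of the basal layer, of other layers and of other cell types were measured beside the members. Of 10 basal markers, 1 had both knockout arrays above both WT arrays (Krt14) and 2 had both below (Itga6 and Dst). Over all genes, 9.9% lay above and 9.14% below. The median difference of the basal markers was 0.02. Itga6 had 11908 and 10639 in WT and 6327 and 9411 in Ezh2cKO (log2 -0.54, SE 0.22) by the brighter of its 2 probe sets above the filter, and the other gave -0.19. The 4 Dst probe sets above the filter ranged from -0.24, that of the brightest, to 0.04. Of 12 markers of the spinous and granular layers, 4 had both knockout arrays above both WT arrays (Dsc1, Ivl, Flg and Lor) and 0 had both below, again beside 9.9% and 9.14% of all genes. Their median difference was 0.27, beside 0.27 for the members. Flg, whose product Asprv1 and Casp14 process, had 23.8 and 29.5 in WT and 169 and 184 in Ezh2cKO (log2 2.18, SE 0.51). The summed signal of these 12 was 47045 to 54189 in WT and 52778 to 59574 in Ezh2cKO, carried mostly by Krt1, Krt10 and Krtdap, which overlapped between genotypes. Of 8 periderm markers, 3 were higher and 1 lower on both knockout arrays, and 1 and 1 under both other scalings. The summed signals of the 8 were 7164 to 11519 in WT and 9913 to 12944 in Ezh2cKO. Krt17 carried most of that sum and overlapped between genotypes (10577 and 6428 in WT, 11211.5 and 8974 in Ezh2cKO). The median difference of the 8 was 0.35, and 6 of the 8 were higher in Ezh2cKO within both numbers, where 25.5% of all genes were. Krt23, below the filter, had 13.5 and 10.8 in WT and 164 and 72.0 in Ezh2cKO (log2 2.16). Krt6a had 248 and 201 in WT and 572 and 254 in Ezh2cKO (log2 0.74, SE 0.43), and Krt7 had 227 and 101 in WT and 440 and 220 in Ezh2cKO (log2 0.96, SE 0.51), which overlap. Krt4 was lower on both knockout arrays (69.8 and 133 in WT, 61.6 and 56.0 in Ezh2cKO, log2 -0.60, SE 0.56), and Krt19 lay between 5.0 and 30.6 on the 4 arrays. The part of these cells in the differences of the members was not tested.

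Other lists moved with 1 array or with both numbers. Within both numbers, the knockout array was the higher one for 13 of 14 stress and dissociation genes, where it was for 25.5% of all genes. Their medians were 0.66 and 0.57, with summed signals of 47245 and 81512 in WT and 69726 and 113448 in Ezh2cKO. Of 8 endothelial markers, 0 were separated, or 4 lower (Cdh5, Kdr, Tie1 and Esam) under a common median, and their median was -1.002 within number 1 and 0.09 within number 2, with a summed signal of 4477 in Ezh2cKO replicate 1 and 8548 to 10866 on the other arrays. Melanocyte markers had medians of -0.59 and 0.04 and immune markers -0.26 and 0.03, with summed signals of 1714 to 2431 and 1129 to 1365 over the arrays. Fibroblast markers had -0.15 and 0.06, with 46251 to 58119. Xist, expressed from the inactive X chromosome, had 86.9 in Ezh2cKO replicate 1 and 8669 to 11333 on the other arrays. The part of stress, endothelial cells and embryo sex in these differences was not tested.

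**Figure D5:**
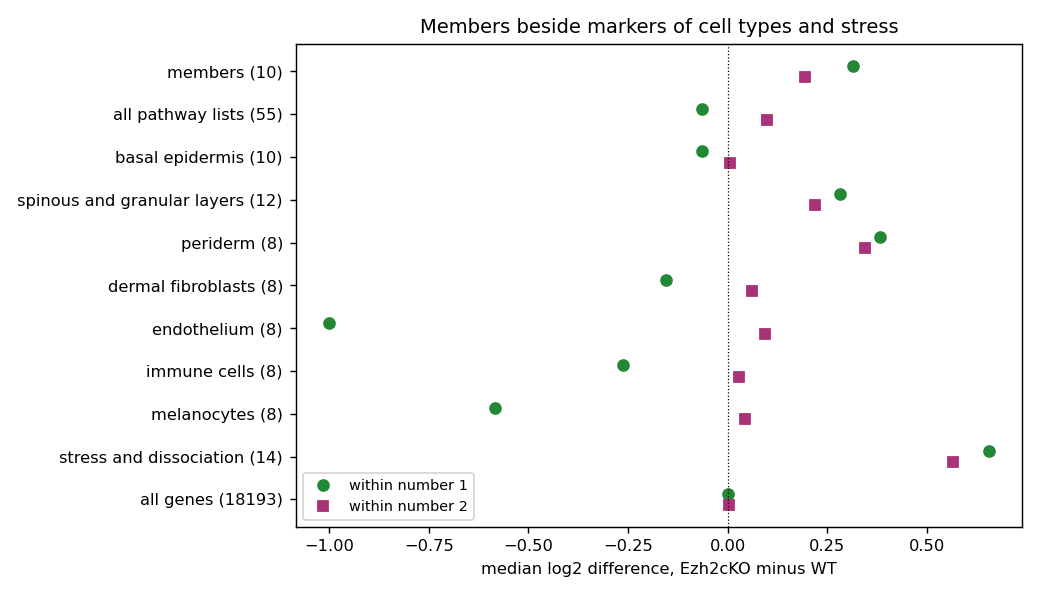
Median log2 difference (horizontal axis, Ezh2cKO minus WT) of each gene list, with the number of genes measured in brackets, within number 1 (circles) and number 2 (squares). The 10 members lie beside the spinous and granular markers (0.32 and 0.19 against 0.28 and 0.22), and endothelial markers differ within number 1 only.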

How the data were processed

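RNA of 4 samples, 2 per genotype, was measured on Affymetrix mouse arrays. The deposited values are linear signal intensities that the authors computed with MAS5, as the submitters' processing notes name it. Leaving out the highest and lowest 2%, all arrays averaged 500.0, and that scaling was kept. Detection calls were not used here.

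Control probe sets (64) were left out. Of the remaining 45037, 34945 had 1 gene symbol, and symbols were updated through the gene identifier (34741 matched to RefSeq, GRCm38.p6). A gene is shown by its brightest probe set unless another is named. The genotype difference was fitted on log2(signal + 16) by limma (3.58.1, under R 4.3.3), with an intensity trend, no block, and Benjamini-Hochberg adjustment over the 27022 probe sets whose mean signal lay in the upper 60% (at least 73.2). The fit was run on simulated data with independent noise and no effect of replicate number. That run does not show how the fit performs on these arrays. Named were all members, up to 4 separated genes per related list by size, and the 5 genes nearest in profile. Other genes were named after their values were seen. Members and lists were chosen with earlier results of these data known. Genes of the related lists without a probe set of their own were not analysed here. Alternatives were other pseudocounts, filters and scalings, the replicate number as a block, no trend, the mean of all probe sets of a gene, and leaving out each array.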

Additional observations from a re-analysis of the deposited data

How the results depend on the processing

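Of 115 recomputed member differences, 109 kept their direction and their side of the threshold, 0 passed it, and 6 turned sign, all with 1 array left out: the mean ranged from -0.97 to 0.64 for Tgm5, from -0.29 to 0.36 for Casp14 and from -0.36 to 0.56 for St14. Over all probe sets, 0 were called by limma under the settings above (94 higher and 16 lower at an unadjusted p under 0.05), and 0 to 52 with 1 array left out, 52 and 2 on leaving out WT replicates 2 and 1, and 27 and 0 on leaving out Ezh2cKO replicates 2 and 1. In those fits the lone array is assumed to vary like the others.

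Members with both knockout arrays above both WT arrays numbered 4, 2 under scaling to a common median, and 5 to 7 with 1 array left out, a check added after seeing the data; lower ones numbered 0, and 0 to 1. With 1 array left out, 24.1% to 36.0% of all genes were higher and 23.8% to 35.7% lower, against 9.9% and 9.14% with all 4. Among related genes 6 were higher, 2 under a common median and 10 to 23 with 1 array left out, and 6 were lower, 2 among those that pass the filter and 10 to 19 with 1 array left out.

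With the replicate number as a block, limma called 6 probe sets, 5 of them higher, and no member (adjusted p 0.424 for Klk7, 0.693 for Klk5 and 0.805 for Asprv1). The SE was then 0.23 for Klk7 (0.35 without the block), 0.23 for Klk5 (0.39), 0.12 for Asprv1 (0.24) and 0.20 for Tgm5 (0.61). Arrays of the same number deviated together (correlation 0.766 over 27022 probe sets), but the labels do not say that a number marks a shared litter or day, and with 2 pairs the numbers are not taken to pair the samples. Values near or under 73.2, such as those of Spink5 and Cst6 and the WT signals of Klk5 and Klk7, cannot be set against a background here. The folds of these genes are therefore uncertain.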
